A study of Mus musculus with 6 samples.

Results

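The T-box transcription factors described here are Tbx1, Tbx2, Tbx3, Tbx4, Tbx5, Tbx15, Tbx18 and Tbx20, taken as the rows of the deposited expression table that carry these symbols. All 8 were found among its 20325 genes. T-box proteins share a DNA-binding domain, the T-box, first known from the mesoderm regulator Brachyury, and bind short sites related to AGGTGTGA. In the embryo they pattern mesoderm: Tbx5 marks the forelimb bud and the heart, Tbx4 the hindlimb bud and the lung mesenchyme, Tbx1 the pharyngeal arches, Tbx18 the epicardium, sinus node and somites, and Tbx15 the skeleton and dermis. Tbx2, Tbx3, Tbx15 and Tbx18 act mainly as repressors, Tbx1, Tbx4 and Tbx5 mainly as activators, and Tbx20, a heart regulator, as both. Developmental regulators of this kind are well-known targets of Polycomb repressive complex 1 (PRC1), which ubiquitinates histone H2A through Ring1a or Ring1b.

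RNA was sequenced from C3H10T1/2 cells, a multipotent mesenchymal line from C3H mouse embryos, at passage 10 to 15. All 6 samples were parental cells treated with small interfering RNA: a scrambled one in the 3 control samples, and ones directed at Ring1a and Ring1b in the 3 knockdown samples. Such RNAs deplete their targets in part and for a limited time. Levels below are the authors' estimated counts of reads for each gene, after their median normalization. Fold changes are ratios of group means, and each log2 fold change is the knockdown minus the control mean of log2(value + 1), a scale that makes changes of low genes look smaller.

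The targeted genes checked the labels. Rnf2, which encodes Ring1b, fell from 814 ± 15.4 to 119 ± 38.7 (SD, n = 3; limma adjusted p = 0.00946, and from 0.0646 to 0.0852 without any 1 control or knockdown replicate 1), and Ring1, which encodes Ring1a, stood at 365 ± 26.3 and 206 ± 55.5 (limma adjusted p = 0.104, and 3.86e-06 without knockdown replicate 2). Of 10 mesenchymal marker genes 9 had a mean of at least 10, with Col1a1, Col1a2 and Vim the most abundant and Nt5e between 3.61 and 7.92 in the 6 libraries. Control replicates 1, 2 and 3 held an estimated 51800000, 5400000 and 15100000 reads, and knockdown replicates 1, 2 and 3 held 23200000, 4600000 and 18500000. Knockdown replicate 2 differed from knockdown replicates 1 and 3. Against their mean, its median log2 difference was 1.10 over the 2991 genes with the shortest transcripts and −0.96 over the 2988 with the longest. Values for the members and for the other genes named are therefore also given without knockdown replicate 2 where they differ much.

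The RefSeq sequence table (GRCm38.p6) held promoters of 4 members and none for Tbx2, Tbx3, Tbx5 and Tbx15. Availability thus set which members are shown. These 4 range in level from Tbx1 and Tbx18, which were well expressed, to Tbx4, which was not. Their promoters are shown because PRC1 is known to be recruited to CpG-rich promoters. Each runs 5′ to 3′ on the gene's strand from 250 bases before to 50 bases after the annotated start, with CpG dinucleotides in capitals. They lie at chr16:18590622-18590921 (minus strand, Tbx1, the second of its 2 listed starts), chr9:87731211-87731510 (minus strand, Tbx18), chr9:24774254-24774553 (minus strand, Tbx20) and chr11:85896515-85896814 (plus strand, Tbx4).
Tbx1: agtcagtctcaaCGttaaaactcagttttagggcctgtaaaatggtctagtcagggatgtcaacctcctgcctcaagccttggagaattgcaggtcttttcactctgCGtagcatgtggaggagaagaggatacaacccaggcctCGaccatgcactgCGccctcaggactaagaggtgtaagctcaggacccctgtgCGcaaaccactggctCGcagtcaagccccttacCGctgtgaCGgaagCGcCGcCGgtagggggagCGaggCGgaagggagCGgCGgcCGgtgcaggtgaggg
Tbx18: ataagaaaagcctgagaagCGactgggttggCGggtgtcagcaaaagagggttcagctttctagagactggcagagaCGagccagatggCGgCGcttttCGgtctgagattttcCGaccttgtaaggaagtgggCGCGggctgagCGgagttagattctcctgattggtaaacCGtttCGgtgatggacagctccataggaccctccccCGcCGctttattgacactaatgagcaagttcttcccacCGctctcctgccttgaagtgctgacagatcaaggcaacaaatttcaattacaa
Tbx20: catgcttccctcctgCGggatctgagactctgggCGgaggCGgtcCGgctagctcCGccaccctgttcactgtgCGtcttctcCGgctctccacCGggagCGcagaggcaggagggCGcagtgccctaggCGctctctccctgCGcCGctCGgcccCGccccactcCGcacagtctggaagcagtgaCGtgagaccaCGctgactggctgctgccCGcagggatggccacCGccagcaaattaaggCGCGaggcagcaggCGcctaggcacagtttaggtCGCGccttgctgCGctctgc
Tbx4: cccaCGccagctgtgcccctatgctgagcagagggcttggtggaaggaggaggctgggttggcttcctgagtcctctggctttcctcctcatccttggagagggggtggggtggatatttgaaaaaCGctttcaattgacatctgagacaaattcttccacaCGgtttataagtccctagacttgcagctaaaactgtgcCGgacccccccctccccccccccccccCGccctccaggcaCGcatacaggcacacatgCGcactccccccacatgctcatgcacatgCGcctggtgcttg
The Tbx20 promoter held 26 CpG dinucleotides, that of Tbx1 16, that of Tbx18 15 and that of Tbx4 8. Over 32851 promoters of the same length the median was 7, with quartiles at 3 and 20. The ratio of observed to expected CpG was 0.75 for Tbx18 and for Tbx20, 0.63 for Tbx1 and 0.31 for Tbx4, against a median of 0.38. The other listed start of Tbx1 had 26 CpG dinucleotides. Tbx20, with the most CpG dinucleotides of the windows shown, was among the members with low RNA. The sequence AGGTGT, the start of the T-box site AGGTGTGA, was searched on both strands. It occurred 1 time in the Tbx1 window shown and in none of the other 3, and 13.7% of all promoters held it. The 8-letter site AGGTGTGA occurred in none of the 4, and in 1.28% of all promoters.

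In the control cells the members spanned the whole range from well expressed to at most 1 read. Per kb of the longest protein-coding transcript, the control level was 154 ± 19.4 for Tbx1, 103 ± 2.34 for Tbx15, 88.8 ± 3.07 for Tbx18 and 35.0 ± 1.88 for Tbx3 (SD, n = 3). Far below them stood Tbx2, at 3.64 ± 0.45 per kb, and Tbx20, at 0.68 ± 0.19. The control libraries of neighbours in this order did not overlap for these 6 members. Per kb of the median transcript, Tbx15 came first (565 per kb, against 208 for Tbx1), since its median transcript has 653 nt and its longest 3566 nt, and Tbx20 (3.42) lay close to Tbx2 (3.64). The place of Tbx15 and of Tbx20 in the order thus depends on the transcript used. Tbx4 and Tbx5, the limb-type members, were last, with at most 1 read in any library.

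In the knockdown cells the order per kb of the longest transcript began again with Tbx1 (241 ± 35.4) and Tbx15 (136 ± 25.6), followed by Tbx18 (84.9 ± 36.5), Tbx3 (47.7 ± 8.68), Tbx2 (13.7 ± 1.37) and Tbx20 (0.91 ± 0.43; SD, n = 3). Here Tbx18 and Tbx3 could not be separated beyond their spread, because Tbx18 stood at 42.7 per kb in knockdown replicate 2 and Tbx3 ranged from 37.6 to 52.8. The other neighbours in the order did not overlap.

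**Figure D1:**
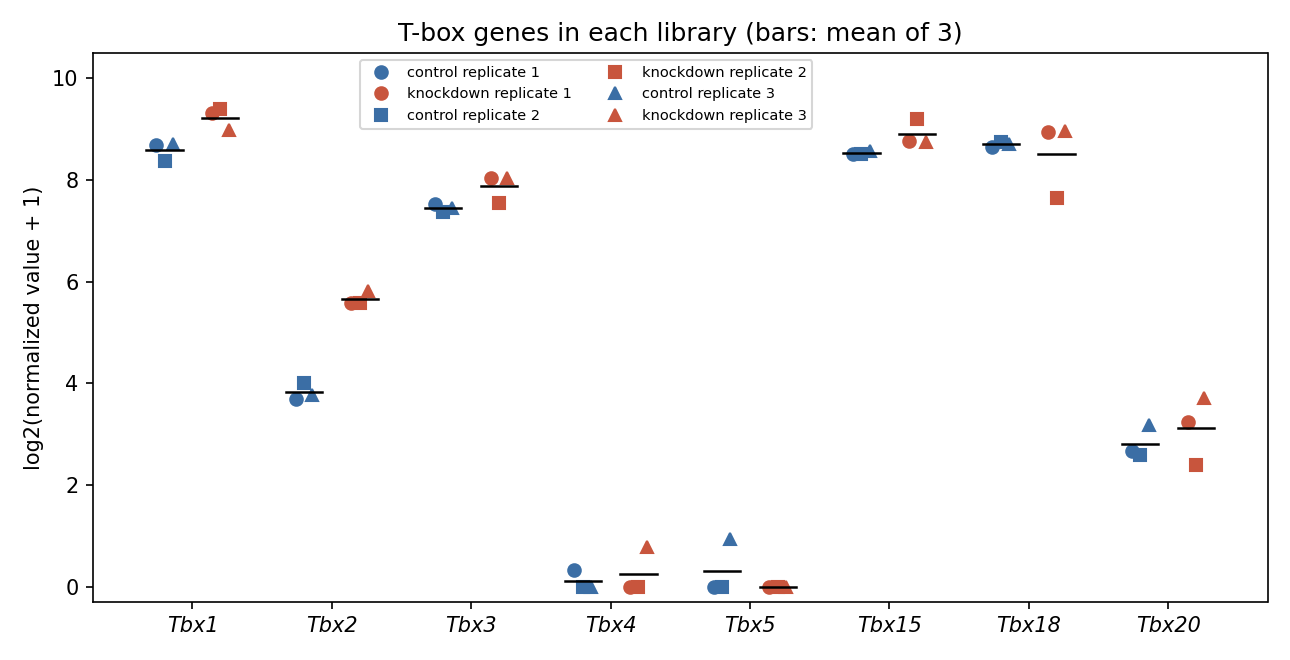
Level of each T-box gene in each library as log2(normalized value + 1), with controls in blue, knockdowns in red, marker shapes for replicate numbers and black bars for the mean of 3. Tbx2 moves from 11.9 to 15.0 in the controls to 46.8 to 55.5 in the knockdowns, while Tbx4 and Tbx5 stay at or near 0 and Tbx18 is low in knockdown replicate 2 alone.

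Tbx2 was the 1 tested member that changed with all 6 libraries. This repressor, which restrains differentiation in the heart and is known to silence cyclin-dependent kinase inhibitor genes, had levels of 11.9, 15.0 and 12.6 in control replicates 1, 2 and 3. Knockdown replicates 1, 2 and 3 had 46.9, 46.8 and 55.5. The lowest knockdown value was thus well above the highest control, and the 3 knockdowns lay close together, knockdown replicate 2 included. The means were 13.2 ± 1.63 and 49.7 ± 4.98 (SD, n = 3), a 3.77-fold rise (log2 fold change 1.84, SE 0.22, limma adjusted p = 0.0139, higher in 3 of 3). In bulk RNA, more cells that express a gene and more RNA per cell cannot be told apart. A higher log2 fold change was found for 245 of the 12085 tested genes.

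Behind these Tbx2 values stood an estimated 46, 6 and 14 reads in the controls and 83, 11 and 78.1 in the knockdowns. The exact Poisson 95% interval, which covers counting error only, ran from 5.52 to 32.7 in the shallow control replicate 2 and from 23.3 to 83.7 in the shallow knockdown replicate 2, and these overlap. In the deeper libraries the intervals were separate: 8.72 to 15.9 and 6.91 to 21.2 for control replicates 1 and 3, against 37.4 to 58.2 and 43.8 to 69.2 for knockdown replicates 1 and 3.

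Of the 8 members, 5 had a mean of at least 10 and were tested, and 1 of these rose and 0 fell. Among all tested genes 3.2% rose and 1.78% fell, and among the 995 tested genes with a control mean from 5 to 30, the range that holds Tbx2, 9.35% rose and 1.01% fell. Genes of that range with a control mean under 10 were tested only if their knockdown mean was over 10. The filter thus tilts these 2 shares toward rises. In 4 of the 5 tested members the 3 knockdowns lay above the 3 controls, which was so for 20.5% of all tested genes. The median log2 fold change of the 5 was 0.43, against 0.01 over all tested genes. A mean filter favours members that are high in at least 1 group, so these 5 do not stand for all 8.

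The call for Tbx2 differed with the library left out. Without knockdown replicate 2 it held (log2 fold change 1.88, SE 0.26, limma adjusted p = 9.48e-05), in a fit that called 23.8% of genes higher and 26.1% lower. Without any one of the other 5 libraries it was lost, with log2 fold changes between 1.76 and 1.93 and limma adjusted p of 0.0981, 0.0756 and 0.114 without control replicates 1, 2 and 3 and 0.0855 and 0.0763 without knockdown replicates 1 and 3. Those 5 fits called few genes at all: 0% were higher without any 1 control, 0.0579% without knockdown replicate 1 and 0.306% without knockdown replicate 3. The authors' deposited table of 323 differential genes, whose smallest rise is 4.01-fold, lists 0 of the 8 members.

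Tbx1, the pharyngeal activator whose human counterpart is lost in the 22q11 deletion syndrome, was higher in every knockdown library but did not pass with all 6. Its control levels were 415, 331 and 416, lowest in replicate 2, and its knockdown levels 636, 673 and 504, with no overlap. The log2 fold change was 0.64 (SE 0.19, limma adjusted p = 0.131), from a mean of 387 ± 48.7 to 604 ± 88.9 (SD, n = 3). Leaving out knockdown replicate 2 gave 0.56 (SE 0.13), which passed (limma adjusted p = 0.00504).

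Tbx3, the closest relative of Tbx2 and likewise a repressor, had control levels of 184, 165 and 174 and knockdown levels of 262, 187 and 263. Knockdown replicate 2 lay just above the highest control, and knockdown replicates 1 and 3 lay close together. With all 6 libraries the log2 fold change was 0.43 (SE 0.19, limma adjusted p = 0.283), and without knockdown replicate 2 it was 0.59 (SE 0.10, limma adjusted p = 0.00039). A correction for transcript length, which uses all 6 libraries and was chosen after seeing the data, also put Tbx3 past the threshold, at 0.67 (SE 0.13, limma adjusted p = 0.0243), where 6.77% of genes rose.

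Tbx15, needed for the skeleton and for muscle fibre type, varied least of the tested members among the controls relative to its mean, at 365, 363 and 378, and its knockdown levels were 435, 591 and 431. The groups did not overlap, but the highest value was that of knockdown replicate 2. Its log2 fold change was 0.38 (SE 0.18, limma adjusted p = 0.298), and 0.23 without that library (SE 0.07, limma adjusted p = 0.0197), a smaller difference that passed.

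For Tbx18, a repressor of the epicardium and of the sinus node, the direction turned on 1 library. Control levels were 400.1, 428 and 418, and levels in knockdown replicates 1, 2 and 3 were 492, 199.8 and 499.5: knockdown replicates 1 and 3 lay above every control and knockdown replicate 2 below every control. With all 6 libraries the log2 fold change was −0.18 (SE 0.38, limma adjusted p = 0.772). Without knockdown replicate 2 it was 0.25 (SE 0.07, limma adjusted p = 0.0102). The low value rested on 47 reads, with an exact Poisson 95% interval of 147 to 266 that lies below the 3 control levels. With the correction for transcript length the log2 fold change was 0.031 (SE 0.23, limma adjusted p = 0.938).

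**Figure D2:**
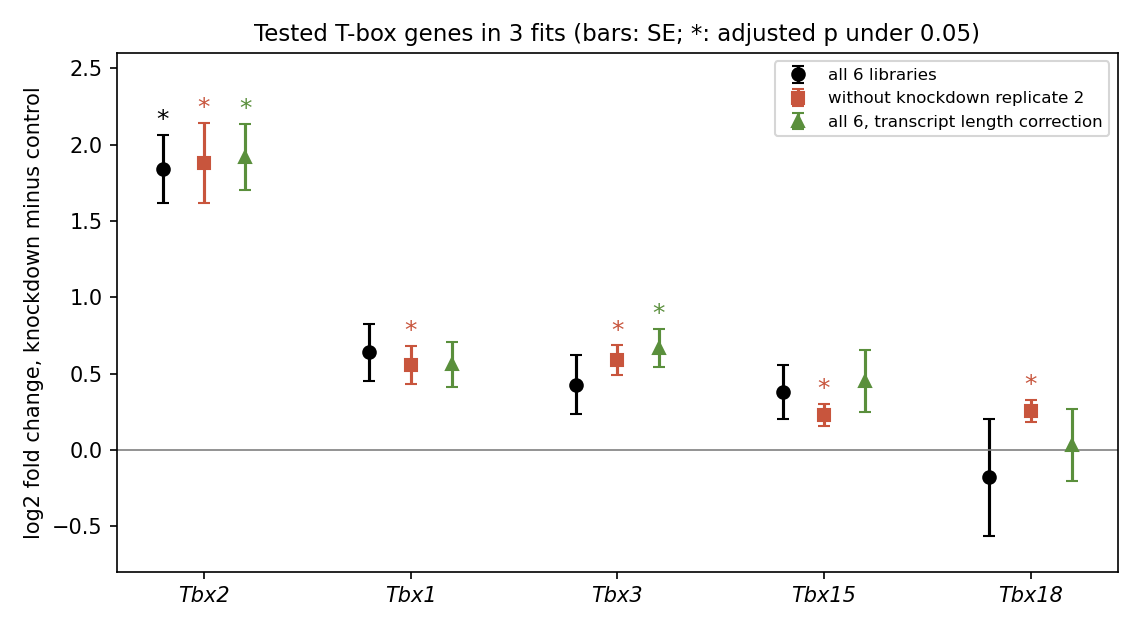
Log2 fold change (knockdown minus control, with its SE) of the 5 tested T-box genes with all 6 libraries, without knockdown replicate 2 and with a correction for transcript length, where an asterisk marks a limma adjusted p under the threshold. Tbx2 lies between 1.84 and 1.92 in all 3 fits, and Tbx18 moves from −0.18 to 0.25 when knockdown replicate 2 is left out.

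All 5 tested members were called higher without knockdown replicate 2. That was so for 23.8% of all genes in that fit, and the sizes ranged from 0.23 for Tbx15 to 1.88 for Tbx2. With library weights, which give a divergent library less say, all 5 were called higher too, as were 34.9% of all genes. With a length correction by the median transcript, Tbx2 and Tbx3 were called, as were 5.32% of all genes, and with a mean filter of 50, which leaves Tbx2 out, 0 of the other 4 members, beside 2.58%. The values of knockdown replicate 2 can be set beside transcript length. Against the mean of knockdown replicates 1 and 3, that library was 1.31 log2 units lower for Tbx18 (difference −1.31), whose transcript has 4679 nt, in a bin whose median difference was −0.37. Tbx3 (4982 nt) differed by −0.48 in a bin with a median of −0.96, and Tbx2 (3626 nt) by −0.12 in the bin of Tbx18. Tbx1 (2511 nt) differed by 0.25 in a bin with a median of 0.11, and Tbx15 (3566 nt), in the bin of Tbx18 and Tbx2, by 0.45. Tbx18 lay lower than most genes of its bin, of which 13.03% were lower still, and Tbx15 higher than 81.1%. Whether length accounts for any 1 member's difference was not tested.

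**Figure D3:**
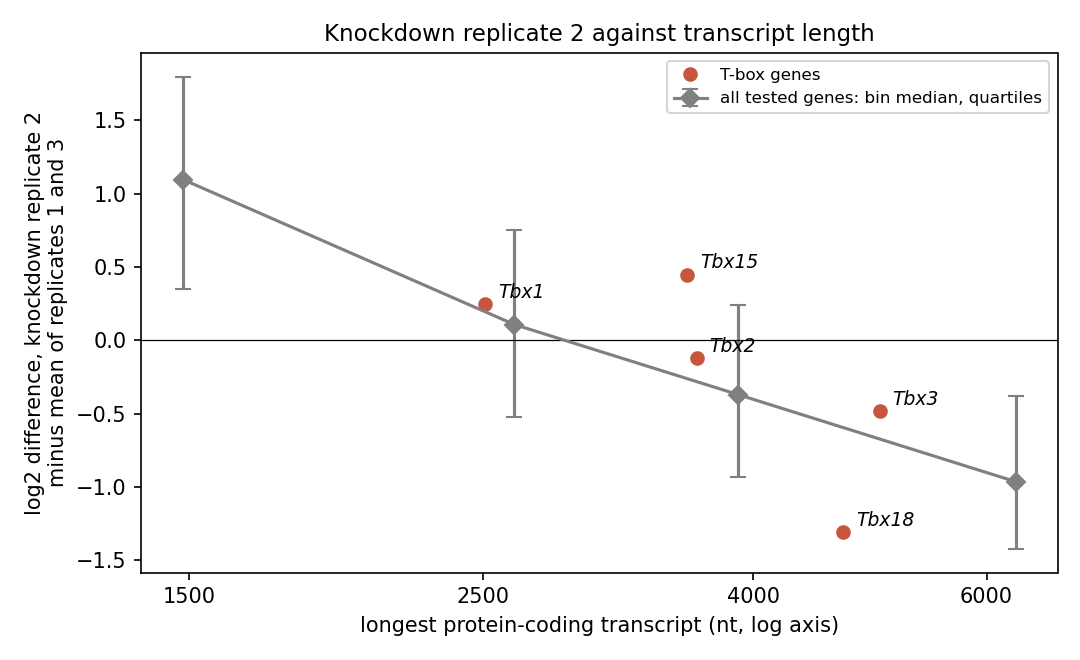
Log2 difference of knockdown replicate 2 from the mean of knockdown replicates 1 and 3, against the longest protein-coding transcript on a log axis, with bin medians and quartiles of all tested genes in grey and T-box genes in red. The bin medians go from 1.10 to −0.96 as transcripts lengthen, with Tbx18 at −1.31 under the lower quartile of its bin and Tbx15 at 0.45 over the upper quartile.

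The remaining members were low or silent in both groups. Tbx20, a regulator of the heart chambers, had control levels of 5.38, 5.01 and 8.11 from 20.8, 2 and 8.98 reads. Its knockdown levels were 8.48, 4.25 and 12.1 from 15, 1 and 17 reads. The groups overlapped, and its mean was under the filter. Without a filter its log2 fold change was 0.30 (SE 0.44, limma adjusted p = 0.689). Tbx4 was listed at 0 in 4 libraries, with 1 read each in control replicate 1 (0.26) and knockdown replicate 3 (0.71). Tbx5 was listed at 0 in 5 libraries, with 1 read in control replicate 3 (0.90). At 3 reads the floor ranged from 0.78 for control replicate 1 to 12.8 for knockdown replicate 2, and a low level of Tbx4 or Tbx5 in the shallow libraries was not detectable.

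Tbx2 and Tbx4 are neighbours on mouse chromosome 11, and Tbx3 and Tbx5 on chromosome 5, each pair a relic of an ancestral tandem duplication. In both pairs the repressor was expressed and the limb-type partner had at most 1 read in each library. On the far side of Tbx2 lay Bcas3, with control levels of 534, 486 and 525 and knockdown levels of 396, 650.5 and 371 (log2 fold change −0.17, SE 0.25, limma adjusted p = 0.673). On the far side of Tbx4 lay the DNA helicase gene Brip1, with control levels of 160.2, 181 and 120.2 and knockdown levels of 259.7, 253 and 256, which did not overlap (log2 fold change 0.75, SE 0.20, limma adjusted p = 0.0998). Around Tbx3 and Tbx5, the Mediator gene Med13l had a log2 fold change of −1.09 (SE 0.58, limma adjusted p = 0.344) and the ribosome biogenesis gene Rbm19 one of 0.23 (SE 0.14, limma adjusted p = 0.388). Without knockdown replicate 2, which lay at 340.1 for Med13l against 1316 and 1491 in knockdown replicates 1 and 3, these 4 neighbours were called, Brip1 (log2 fold change 0.76) and Rbm19 (0.24) higher and Bcas3 (−0.42) and Med13l (−0.41) lower, in a fit that called 49.9% of all genes.

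The nearest measured genes around the other members passed neither with all 6 libraries nor without knockdown replicate 2. They were Gnb1l and Gp1bb beside Tbx1 on chromosome 16 (log2 fold change 0.69 and 0.88, limma adjusted p = 0.308 and 0.507), Wars2 beside Tbx15 on chromosome 3 (−0.01, limma adjusted p = 0.983), 4922501C03Rik beside Tbx18 on chromosome 9 (−0.40, limma adjusted p = 0.361) and Herpud2 beside Tbx20 on chromosome 9 (−0.48, limma adjusted p = 0.469). Gp1bb was high in knockdown replicate 2 alone, at 653 against 100.8 and 94.4 in knockdown replicates 1 and 3 and 94.3 to 107 in the controls, and its log2 fold change without that library was −0.031. That of Gnb1l was then 0.36, of Wars2 −0.12, of 4922501C03Rik −0.19 and of Herpud2 −0.067. Spag17, Nt5e and Dpy19l2, on the other sides of Tbx15, Tbx18 and Tbx20, were under the filter. Tbx1, Tbx3, Tbx5 and Tbx15 overlap non-coding genes in the RefSeq annotation that carry no row of their own in the table, and with no strand setting known, reads from these cannot be told apart from the members' own.

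The rest of the family was mostly silent. Of 9 other T-box genes, Tbx19, Tbx21 and Tbx22 were listed at 0 in all 6 libraries. Brachyury itself (T), Tbr1, Eomes and Tbx10 stood below 5 in every library, with Eomes at 2.26 and 2.84 in knockdown replicates 1 and 3, 4 reads each, and at 0 in knockdown replicate 2. Tbx6, a regulator of somite formation, had control levels of 11.1, 12.5 and 8.13 and knockdown levels of 11.3, 8.50 and 7.82, which overlapped. Mga, a large protein with a T-box that also belongs to a variant form of PRC1, was the most abundant, with control levels of 1363, 1275 and 1214 and knockdown levels of 1147, 475 and 1283. Its log2 fold change was −0.53 (SE 0.40, limma adjusted p = 0.462) and −0.08 without knockdown replicate 2 (SE 0.07, limma adjusted p = 0.349).

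Genes that work with the T-box factors were taken from 7 lists of partners, reported targets and upstream signals, which hold 92 different genes, all of them in the table. Of the 52 that were tested, 2 rose and 2 fell, 3.85% in each direction, beside 3.2% and 1.78% of all tested genes. The median log2 fold change of the 52 was −0.26. These 4 calls also differed with the library left out: all 4 held without knockdown replicate 2, Cdkn1a, Cyp26b1 and Sox9 were lost without any other library, and Bmp4 without any 1 of the controls (limma adjusted p from 0.0536 to 0.0707).

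Among signals upstream of T-box genes 1 of 14 tested members rose and 1 fell, beside 3.2% and 1.78% of all tested genes. Bmp4, a ligand known to induce Tbx2 and Tbx3 in the embryo, had control levels of 617, 704 and 722 and knockdown levels of 5622, 5222 and 4638, a 7.58-fold rise (log2 fold change 2.92, SE 0.15, limma adjusted p = 0.00287). Cyp26b1, the enzyme that clears retinoic acid in the limb bud, had control levels of 1149, 1138 and 971 and fell to 277, 140.3 and 294 (log2 fold change −2.26, SE 0.32, limma adjusted p = 0.021). With total scaling Cyp26b1 was not called (limma adjusted p = 0.0691). Bmp2, Aldh1a2 and Shh were listed at 0 in all 6 libraries. The fit that leaves out knockdown replicate 2 called 4 of the 14 higher and 5 lower, and 23.8% and 26.1% of all genes.

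Of reported targets of Tbx2 and Tbx3, 1 of 8 tested members rose and 0 fell, beside 3.2% and 1.78% of all tested genes. The 1 that rose was Cdkn1a, which encodes the cell cycle inhibitor p21 and which Tbx2 is known to repress. Its control levels were 2323, 2412 and 2324 and its knockdown levels 3786, 5314 and 4067 (log2 fold change 0.88, SE 0.18, limma adjusted p = 0.0487). This lay at the edge of the threshold. The adjusted p was 0.0503 with a pseudocount of 0.1, 0.0522 with a mean filter of 50, 0.0605 with no filter and 0.0876 with total scaling, all in limma. Leaving out knockdown replicate 2 gave 3 calls upward and 2 downward among the 8, beside 23.8% and 26.1% of all genes. Of reported targets of Tbx5 and Tbx20, 0 of 4 tested members passed in limma, and 1 was lower at an unadjusted p under 0.05, as were 9.70% of all tested genes. The most abundant were Id2, at 932 ± 42.3 and 669 ± 296 (log2 fold change −0.60, and −0.15 without knockdown replicate 2), and the limb bud growth factor gene Fgf10, at 199 ± 21.1 and 186 ± 34.9 (SD, n = 3; log2 fold change −0.11, SE 0.20). Without knockdown replicate 2, 0 rose and 1 fell of 3 tested, beside 23.8% and 26.1% of all genes. With no filter 1 of the Tbx5 and Tbx20 targets was called lower, beside 1.18% of all genes in that fit. Myh6, a target under the filter, had control levels of 9.97, 3.76 and 9.03 on 38.5, 1.5 and 10 reads. Its knockdown levels were 0.55, 0 and 0.71, on at most 1 read, and the groups did not overlap.

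Of the limb list 0 of 8 tested members passed in limma, and of the heart list 0 of 7, with 1 and 2 lower at an unadjusted p under 0.05, beside 9.70% of all tested genes. The most abundant limb gene was Prrx1, a mesenchymal homeobox gene (log2 fold change 0.05, SE 0.26, limma adjusted p = 0.908). Prrx1 was called higher without knockdown replicate 2 (0.30, SE 0.06, limma adjusted p = 0.00101). In the heart list the most abundant were the corepressor genes Tle3 (−0.01, SE 0.23, and 0.22 without knockdown replicate 2) and Tle1, whose groups did not overlap, at 1162 ± 55.2 and 639 ± 179.5 (SD, n = 3; −0.90, SE 0.25, limma adjusted p = 0.114, and −0.65 with 5.18e-06 without knockdown replicate 2). In the limb list Fgf8, Pitx1, Shh, Hand2 and Isl1 stood below 3 in every library. Not all of that list was silent: Fgf10 ranged from 148.8 to 220.9 and Wnt2b from 4.25 to 15.0. Lmx1b stood at 9.61 and 7.11 in knockdown replicates 1 and 3, on 17 and 10 reads, and at 0.26 or 0 elsewhere. In the Tbx1 network 0 of 9 tested members passed in limma, and 0 at an unadjusted p under 0.05, beside 20.5% of all tested genes in either direction. With no filter 1 gene of this network was called higher, beside 2.64% of all genes in that fit. Flt4, under the filter, had control levels of 1.55, 2.51 and 2.71 on 6, 1 and 3 reads. Its knockdown levels were 11.9, 12.8 and 17.1 on 21, 3 and 24 reads, with no overlap. The forkhead gene Foxc1 had a log2 fold change of −0.36 (SE 0.32), and of −0.016 without knockdown replicate 2. In the Tbx15 and Tbx18 network 0 of 9 rose and 1 fell, beside 3.2% and 1.78% of all tested genes. The 1 that fell was the cartilage regulator Sox9. Its control levels were 7254, 6469 and 6411 and its knockdown levels 2428, 1420.1 and 2748 (log2 fold change −1.66, SE 0.28, limma adjusted p = 0.0327; 0.111 with total scaling and 0.0525 with upper-quartile scaling). Without knockdown replicate 2 the counts were 2 rises and 1 fall in the limb list, 3 and 3 in the heart list, 2 and 0 in the Tbx1 network and 3 and 4 in the Tbx15 and Tbx18 network. The lists had 8, 7, 9 and 9 tested members, and 23.8% of all genes rose and 26.1% fell in that fit.

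**Figure D4:**
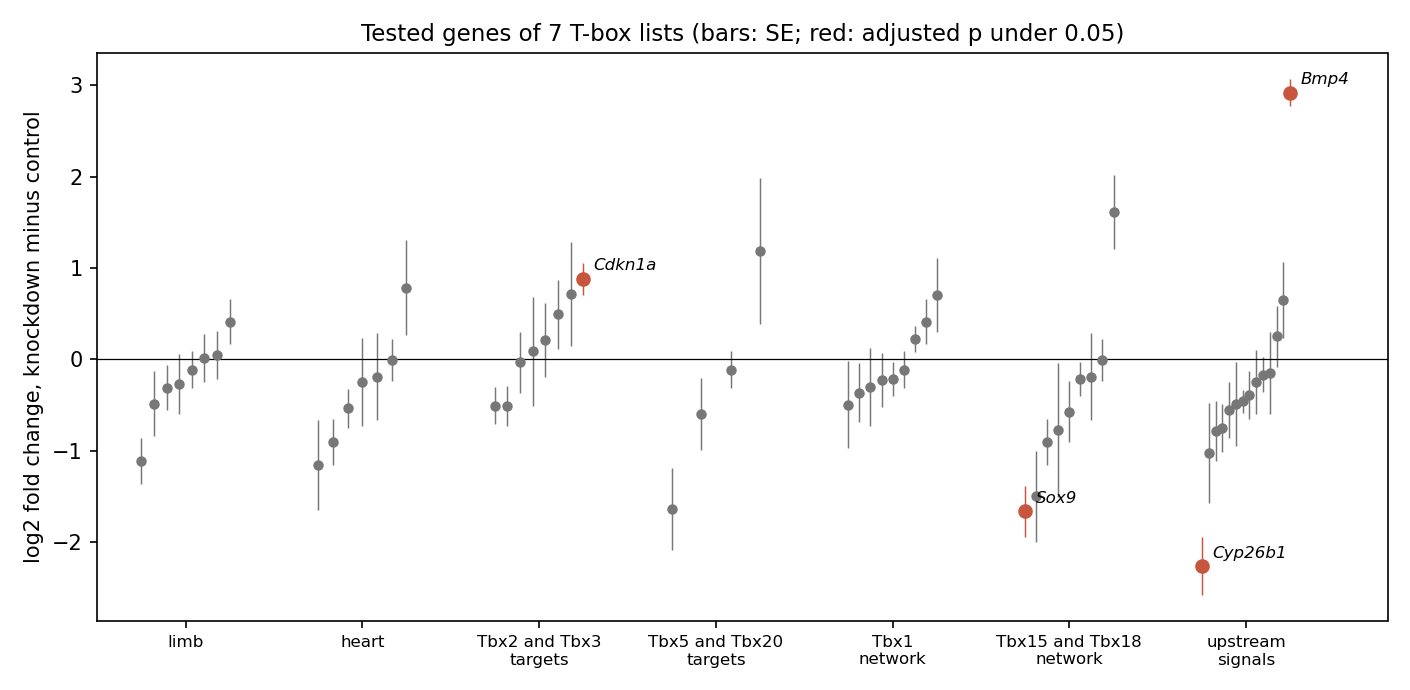
Log2 fold change (knockdown minus control, with its SE) of every tested gene in the 7 lists of T-box partners, targets and upstream signals, sorted within each list, with genes past the limma threshold in red and named. Bmp4 at 2.92 and Cdkn1a at 0.88 lie above 0, and Cyp26b1 at −2.26 and Sox9 at −1.66 below.

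Markers of tissues that use T-box genes were scarce. The summed level of 8 cardiomyocyte genes ranged from 25.2 to 47.9 in the controls and from 32.7 to 199.8 in the knockdowns, the highest in knockdown replicate 2, where Tnni3 reached 93.5 and Tnnt2 68.0 on 22 and 16 reads. Myh6, of the same set and under the filter, went the other way. Its control levels were 9.97, 3.76 and 9.03 and its knockdown levels 0.55, 0 and 0.71. Of 8 epicardial and mesothelial genes 0 reached the filter, their sums lay between 14.2 and 33.4, and Wt1 was listed at 0 throughout. Sums of 7 endothelial genes ranged from 97.7 to 111.1 in the controls and from 110.5 to 166 in the knockdowns, most of it Tek, with Tie1 at 0. Leukocyte and epithelial sums did not exceed 42.5 in any library. Sums of 5 measured neuronal genes ranged from 72.3 to 82.7 in the controls and from 210 to 217 in the knockdowns. The 2 that were tested were each higher at an unadjusted p under 0.05 in limma, beside 10.8% of all tested genes. After adjustment 1 of these 2 rose, beside 3.2% of all tested genes, and Snap25 was at 0 throughout. The 1 that rose was the tubulin gene Tubb3, from a mean of 71.1 ± 7.32 to one of 180.5 ± 27.5 (SD, n = 3), with a limma adjusted p of 0.0225. That limma adjusted p was 0.0888 with the length correction, and over 0.05 without any library other than knockdown replicate 2. The part of these cells in the T-box values was not tested.

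The genes whose pattern was most like each tested member's were found by the distance between centred log2 profiles over the 6 libraries. Predicted genes and clone names were left out of this search and of the counts below. For Tbx2 these were the heparanase gene Hpse (distance 0.16), with control levels of 17.1, 20.05 and 18.1 and knockdown levels of 70.1, 68.0 and 73.2, and Zfp467 (0.32). Within 0.5 log2 units of Tbx2 lay 17 genes, whereas 290 did so for Tbx1, 535 for Tbx3, 1141 for Tbx18 and 1433 for Tbx15. The nearest to Tbx1 were Gnpnat1 and Nfkbie, to Tbx3 Trerf1 and Mcm8, to Tbx15 Rbbp7 and Gps1, and to Tbx18 Rhoq and Pdxdc1. The profiles of Rhoq (3122, 1219 and 3071 in the knockdowns) and Pdxdc1 were, like that of Tbx18, low in knockdown replicate 2. All these likenesses share the same 6 libraries and their depth.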

How the data were processed

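RNA of 3 control and 3 knockdown samples of C3H10T1/2 cells was sequenced after Trizol isolation and TruSeq library preparation, per the labels' protocols. The submitters' processing notes name Bowtie 1.0.0, RSEM 1.2.12 and build mm9. The annotation and strand setting were not known here. The authors deposited a normalized signal per gene and library, which is an estimated count after median normalization, and a table of 323 differential genes with the fold ratio of group means. RSEM can split reads between near-identical genes.

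Here, limma 3.58.1 (R 4.3.3; two-sided, trended and robust empirical Bayes) was run on log2(value + 1) for the 12085 genes with a mean of at least 10, and Benjamini-Hochberg adjusted p-values were read at 0.05. An exact permutation test of 3 against 3 samples cannot go below 0.1. Since the labels name no separate cultures, p-values reflect the spread among these samples and that spread may be technical. The fit was tested on simulated data with large changes only and no divergent library. That test does not cover knockdown replicate 2 or small changes. Depth was estimated by taking the most frequent low value of a library as 1 read. At low values (up to 20 reads) 88.3 to 90.3% were whole within 0.1 read, so no count test was made. Transcript lengths came from GENCODE M21 and promoters and neighbours from RefSeq, on a newer build than mm9, so no coordinates were carried between them. Genes named are all T-box genes, Ring1 and Rnf2, the nearest measured gene on each side of a member, the 2 nearest profiles of each tested member, and from each list up to 4 genes that passed, by smallest p, or else the 2 most abundant; some of these are not reported here. Other genes were named after their values were seen. The members and lists were chosen with earlier results of these data known. Results were recomputed with each library left out, with a replicate block and with other pseudocounts, filters, scalings, variance options and library weights. The corrections for transcript length were chosen after seeing the data.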

Additional observations from a re-analysis of the deposited data

How the results depend on the processing

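Tbx2 kept its direction in all 16 alternatives that tested it, with log2 fold changes from 1.59 to 2.01, and passed in 10 of them. With the replicate number as a block it had the same log2 fold change and was not called (limma adjusted p = 0.119). The labels do not say whether the replicate numbers pair the samples. Deviations of same-numbered samples correlated at 0.17, −0.05 and −0.05, which with 3 libraries per group cannot decide this. Rises and falls over all genes were 387 and 215 with the main settings, 0 and 0 with the block (1866 genes at an unadjusted p under 0.05, against 2473), 184 and 116 with total scaling, which shifted the median log2 fold change by −0.14, and 4214 and 4596 with library weights, whose estimation stopped before it converged. Upper-quartile scaling gave 130 falls. Corrections for transcript length gave 636 rises and 358 falls with the median transcript and 809 and 528 with the longest. Leaving out 1 library gave 0 to 2855 rises and 0 to 3136 falls; where 1 control was left out both were 0, with 1475 to 1529 genes at an unadjusted p under 0.05. T-box members that rose numbered 5 with library weights, 2 with either length correction, 0 with the block, 0 with a mean filter of 50, which Tbx2 does not reach, and 0 to 5 when 1 library was left out; 0 fell in any setting. Tbx18 turned to 0.25 with library weights, 0.25 without knockdown replicate 2, and 0.10 and 0.031 with the 2 length corrections, and lay between −0.40 and 0.25 when 1 library was left out. Mga turned to 0.029 and 0.063 with the corrections. The cause was not tested. Depth limits Tbx4, Tbx5 and Tbx20 most, in control replicate 2 and knockdown replicate 2.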
